A study of Caenorhabditis elegans with 12 samples.

Results

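The genes described here are 9 regulators of developmental timing and moulting in the nematode Caenorhabditis elegans: lin-14, lin-28, hbl-1, lin-41, lin-29, lin-42, blmp-1, nhr-23 and nhr-25. They were found by gene name in the array annotation, and they are 9 of the 20018 genes on the array. All 9 were measured on every array, by 21 array features in all, each of which stands for 1 transcript and was read by 5 or 6 probes. The values are log2 intensities averaged over the features of a gene, so 1 unit is a doubling of signal.

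Heterochronic genes set which larval stage the epidermis and other tissues carry out. In the textbook pathway lin-14, lin-28 and hbl-1 hold early larval fates and are switched off in turn by microRNAs of the lin-4 and let-7 families, while lin-41 holds back lin-29, the transcription factor that starts the adult programme. A partly overlapping set, with lin-42, blmp-1, nhr-23 and nhr-25, is known for transcripts or activity that recur with every moult. Larvae that leave the resting dauer stage pass through this pathway on the way to adulthood.

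Whole-worm total RNA was measured on 12 single-colour arrays, with 3 strains crossed by 4 conditions and 1 array per combination. The strains were the wild type N2, LS292 with the dystrophin allele dys-1(cx18) I and MT4930 with the engulfment receptor allele ced-1(n1995) I, called dys-1 and ced-1 below. For the flight, worms were loaded as dauer larvae with fresh growth medium into BIOBOX, the flight incubator, held at 23 °C for 16.5 days and collected 7 h after landing. Static flight (SS) was in microgravity with a dose of 1.92 mGy, and centrifuged flight (SC) was at 1 g on board with 2.27 mGy. The ground control (GC) was run in a static BIOBOX slot on the ground and began 2 days later, and these 3 are called the BIOBOX conditions. The transport control (TC) stayed in a laboratory incubator and was not taken to the launch site, and the labels do not say for how long, in which containers or how it was collected. In any comparison with it, those unstated differences, BIOBOX and transport cannot be told apart. No label gives the stage of the worms at collection. An array is written as strain and condition, so dys-1-TC is the transport control of the dys-1 strain.

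Each condition held 3 arrays that differ in strain, which is all the replication there is. The design text speaks of technical repeats but not of repeated samples, and how the technical repeats enter the 12 arrays is not stated, so the p-values speak only for the spread among these arrays, which may be partly technical. The dys-1 transcript ranged from 7.29 to 8.68 in its mutant and from 7.25 to 8.17 on the other 8 arrays. The ced-1 transcript ranged from 9.56 to 10.28 in its mutant and from 9.89 to 10.68 elsewhere, so neither range separates the strains, and whether either allele lowers its transcript is not stated. The ced-1-GC array had a mean intensity of 902.3, below the 1018.9 to 1159.6 of the others. N2-TC had a mean of 12.37 over 21 oocyte and early embryo markers, where dys-1-TC and ced-1-TC had 9.87 and 10.14. Where a printed difference of a member lost or gained its call, or moved by over 1.5 times, without one of these arrays, the value without it is given.

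Between the 3 BIOBOX conditions none of the 9 genes passed, and the differences that did pass were all lower values relative to the transport control. In static flight lin-28, blmp-1 and nhr-25 were lower than in the transport control, 3 of 9 against 6.38% of all genes in that direction and 15.1% in either (limma, adjusted p under 0.05). In the ground control lin-28 alone was lower, 1 of 9 against 2.25% of all genes lower and 5.34% in either direction. In centrifuged flight blmp-1 alone was lower, 1 of 9 against 1.82% lower and 4.63% in either direction. These 3 comparisons share the same transport control arrays, so they are not separate evidence. The members' median difference was −0.52 in static flight, −0.52 in the ground control and −0.35 in centrifuged flight, beside medians over all genes of −0.01, −0.04 and 0.00.

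**Figure D1:**
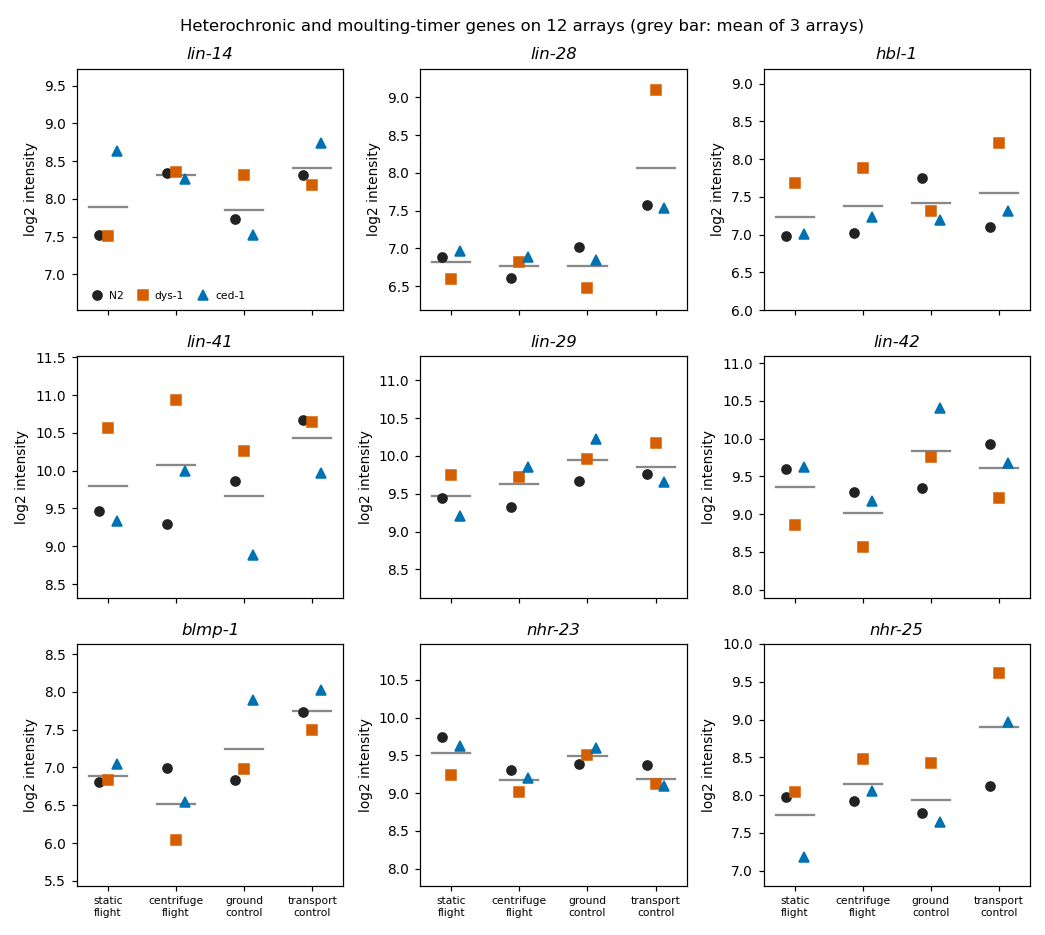
The log2 intensity of each of the 9 genes on the 12 arrays, by condition on the horizontal axis. Circles are N2, squares dys-1 and triangles ced-1, grey bars are means of 3 arrays, and every panel spans the same number of log2 units. The transport control arrays of lin-28 lie at 7.53 to 9.09, above every other array of that gene.

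The gene lin-28 encodes an RNA-binding protein that blocks maturation of the let-7 microRNA and holds early larval fates. Its log2 intensity in N2, dys-1 and ced-1 was 6.88, 6.60 and 6.97 in static flight and 6.61, 6.82 and 6.88 in centrifuged flight. It was 7.02, 6.47 and 6.84 in the ground control and 7.57, 9.09 and 7.53 in the transport control. The 9 BIOBOX arrays lay within 6.47 to 7.02, and each transport control array was above all of them, with dys-1-TC far above the other 2.

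Relative to the transport control, lin-28 stood at −1.25 ± 0.35 log2 units in static flight, 2.37-fold lower (limma, ± SE, 3 arrays per condition, adjusted p = 0.0281). In the ground control it stood at −1.29 ± 0.35 (2.44-fold lower, adjusted p = 0.0485) and in centrifuged flight at −1.29 ± 0.35 without passing (adjusted p = 0.0516). Its groups did not overlap in any of the 3 comparisons. Within strains the static flight difference was −0.69 in N2, −2.49 in dys-1 and −0.57 in ced-1, so the sign was shared and dys-1 supplied most of the size. Without dys-1-TC the values were −0.65 in static flight (adjusted p = 0.145), −0.70 in the ground control (adjusted p = 0.198) and −0.70 in centrifuged flight (adjusted p = 0.23). In bulk RNA, fewer cells of a type and less transcript per cell cannot be told apart.

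The static flight call of lin-28 was also lost without N2-SS (−1.35, adjusted p = 0.069), dys-1-SS (−1.01, adjusted p = 0.119) or ced-1-SS (−1.38, adjusted p = 0.0697). The ground control call was lost without dys-1-GC (−0.99, adjusted p = 0.218), ced-1-GC (−1.37, adjusted p = 0.126) or any single flown array (−1.29, adjusted p = 0.0539 to 0.0697), and with no replicate block for strain (adjusted p = 0.0548). Without N2-TC the 3 values were −1.52, −1.56 and −1.57 in static flight, the ground control and centrifuged flight, with adjusted p of 0.0181, 0.033 and 0.0356. The centrifuged flight difference also passed without ced-1-TC (−1.61, adjusted p = 0.045), N2-GC or dys-1-GC (both −1.29, adjusted p = 0.0476 and 0.0403).

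Both array features of lin-28 placed dys-1-TC highest. F02E9.2a had linear intensities of 244.3, 743.5 and 205.0 on N2-TC, dys-1-TC and ced-1-TC and 97.6 to 178.9 on the BIOBOX arrays. F02E9.2b had 147.3, 399.3 and 167.6 in the transport control and 62.4 to 160.8 elsewhere, so ced-1-SS at 160.8 was above N2-TC on this feature. In a fit of each feature on its own, chosen after seeing the data, F02E9.2a passed in static flight against the transport control (−1.41, limma adjusted p = 0.023, where 14.8% of 23187 features passed). There F02E9.2b did not pass (−1.08, adjusted p = 0.0787). In the ground control F02E9.2b passed (−1.44, adjusted p = 0.0474, where 5.12% passed), and F02E9.2a did not (−1.14, adjusted p = 0.107). In centrifuged flight neither passed, with F02E9.2a at −1.31 and F02E9.2b at −1.27 (limma adjusted p = 0.072 and 0.0904).

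Among the BIOBOX conditions lin-28 differed little, at 0.04 ± 0.35 for static flight minus ground control, or 0.12 without ced-1-GC. The 95% interval of that difference, not adjusted for the number of genes tested, ran from −0.71 to 0.79. Changes within it were not excluded, and larger ones could also have missed the adjusted threshold. The SE was pooled over all conditions, and the SD of lin-28 was 0.89 in the transport control and 0.14 to 0.28 in the BIOBOX conditions. Static minus centrifuged flight was 0.05, with an interval of −0.71 to 0.80.

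The gene lin-14 encodes a nuclear transcription factor of the first larval stage and is the classical target of the lin-4 microRNA. In N2, dys-1 and ced-1 it stood at 7.52, 7.51 and 8.63 in static flight and 8.34, 8.35 and 8.26 in centrifuged flight. They were 7.73, 8.31 and 7.52 in the ground control and 8.31, 8.18 and 8.74 in the transport control. The conditions overlapped, and the centrifuged arrays lay within 0.1 log2 units of each other while the static arrays spanned 7.51 to 8.63.

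No comparison of conditions passed for lin-14, with the lowest unadjusted p at 0.0911 for the ground minus the transport control (−0.56 ± 0.31, limma adjusted p = 0.345), which was −0.22 without ced-1-GC. Static minus ground was 0.03 over the strains, made up of −0.22 in N2, −0.80 in dys-1 and 1.11 in ced-1. Without ced-1-GC the static minus ground value was −0.31. Its 2 features followed each other weakly over the 12 arrays (Pearson r = 0.25, a description). T25C12.1b ran from 193.9 to 761.0 and differed by −1.10 ± 0.41 between static and centrifuged flight (limma adjusted p = 0.313), while T25C12.1a ran from 107.7 to 259.4 and differed by 0.23 ± 0.27 there (adjusted p = 0.79).

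The gene hbl-1 encodes a hunchback-like zinc finger factor that prevents third-stage fates from appearing early. Its values in N2, dys-1 and ced-1 were 6.98, 7.69 and 7.01 in static flight and 7.02, 7.89 and 7.24 in centrifuged flight. They were 7.75, 7.32 and 7.20 in the ground control and 7.10, 8.22 and 7.32 in the transport control. The dys-1 array was the highest in 3 of the 4 conditions, and the conditions overlapped throughout.

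Differences of hbl-1 between conditions ran from −0.32 ± 0.27 for static flight minus the transport control (limma adjusted p = 0.489) to −0.04 for centrifuged flight minus the ground control (adjusted p = 0.994). Without N2-TC the static flight value was −0.50. The 95% interval of static minus ground was −0.77 to 0.39. This gene was dim, with feature intensities of 96.5 to 310.0, and its 2 features shared little pattern (Pearson r = 0.19 over 12 arrays, a description).

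The gene lin-41 encodes a TRIM-NHL RNA-binding protein that is silenced by let-7 and represses lin-29, and it is also known for a role in growing oocytes. In N2, dys-1 and ced-1 it stood at 9.47, 10.57 and 9.34 in static flight and 9.30, 10.94 and 9.99 in centrifuged flight. They were 9.86, 10.26 and 8.89 in the ground control and 10.67, 10.64 and 9.97 in the transport control. The dys-1 array was the highest in the 3 BIOBOX conditions, and N2 was level with it in the transport control.

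The ground control lay below the transport control for lin-41 in all 3 strains, at −0.76 ± 0.31 without passing (limma adjusted p = 0.191), and the groups overlapped. Without N2-TC the value was −0.48, and without ced-1-GC it was −0.53. Static flight minus the transport control was −0.63 ± 0.31 (adjusted p = 0.201), or −0.36 without N2-TC, and centrifuged flight minus it −0.35 ± 0.31 (adjusted p = 0.637), or −0.08 without N2-TC. Both features of lin-41 followed the same course over the arrays (Pearson r = 0.91, a description).

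The gene lin-29 encodes the EGR-family zinc finger factor that ends the larval programme in the epidermis. Its values in N2, dys-1 and ced-1 were 9.44, 9.75 and 9.21 in static flight and 9.32, 9.72 and 9.86 in centrifuged flight. They were 9.67, 9.96 and 10.23 in the ground control and 9.76, 10.17 and 9.66 in the transport control. The whole range was 1.02 log2 units, and every pair of conditions overlapped.

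Static flight lay below the ground control for lin-29 in all 3 strains, by −0.23, −0.20 and −1.02, and the mean of −0.48 ± 0.24 did not pass (limma adjusted p = 0.454). Without ced-1-GC, the highest array of this gene, the mean was −0.30. The flown minus the control pair was −0.36 ± 0.17 (adjusted p = 0.262). The ground minus the transport control was 0.09, with a 95% interval of −0.42 to 0.60. That value was −0.09 without ced-1-GC and 0.14 without N2-TC.

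The 5 genes of the list of adult cuticle genes and LIN-29 targets all rose relative to the transport control in each BIOBOX condition, with medians of 3.88 in static flight, 2.52 in centrifuged flight and 2.6 in the ground control. The cuticle collagen gene rol-1 rose by 3.88 ± 0.28 in static flight (limma adjusted p = 1.97e-06), from 7.07 to 8.54 in the transport control to 10.85 to 12.24. The transcript of lin-29 was not called in any of those comparisons.

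Of the 12 heterochronic partner genes, mab-10, which encodes the NAB-type cofactor of LIN-29, rose by 1.00 ± 0.27 in the ground control (limma adjusted p = 0.047) and by 0.88 ± 0.27 in static flight (adjusted p = 0.0424) against the transport control. In static flight lin-66, known to act upstream of lin-28, fell by 1.21 ± 0.31 (adjusted p = 0.0188) and din-1, a cofactor of the steroid receptor DAF-12, fell by 0.85 ± 0.26 (adjusted p = 0.0429). In centrifuged flight 0 of the 12 passed, with lin-66 at −0.56 ± 0.31 (adjusted p = 0.393), and between BIOBOX conditions none of the 12 passed. Without N2-TC 0 of the 12 were lower in static flight, so the lin-66 and din-1 calls were lost, and without ced-1-GC 0 of the 12 passed in the ground control, so the mab-10 call was lost there.

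Of the 8 genes listed downstream of LIN-14 and let-7, ins-33, an insulin-like gene repressed by LIN-14, fell in all 3 comparisons with the transport control. The changes were −1.32 ± 0.22 in static flight (limma adjusted p = 0.00099), −1.06 ± 0.22 in the ground control (adjusted p = 0.0105) and −0.95 ± 0.22 in centrifuged flight (adjusted p = 0.0237). Its levels were 8.14 to 8.76 in the transport control and 7.16 to 7.66 on the BIOBOX arrays, so the groups did not overlap. The pharynx factor gene pha-4 fell in static flight (−1.11 ± 0.28, adjusted p = 0.0165), and the other 6 did not pass in any of the 3. Without N2-TC 0 of the 8 passed in centrifuged flight, so the ins-33 call was lost there.

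The 8 larval cuticle genes split in static flight against the transport control, with cut-1, col-2 and cut-6 lower and cut-4 higher. The cuticlin gene cut-6 had 9.54 to 10.35 in the transport control and 7.11 to 8.34 on the BIOBOX arrays. It differed by −2.36 ± 0.30 in static flight, −1.97 ± 0.30 in the ground control and −2.32 ± 0.30 in centrifuged flight (limma adjusted p = 9.54e-05, 0.00117 and 0.000369). Of 14 genes of the microRNA machinery only alg-5, an Argonaute gene, passed in static flight (1.43 ± 0.32, adjusted p = 0.00778), and 0 passed in the ground control or in centrifuged flight.

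**Figure D2:**
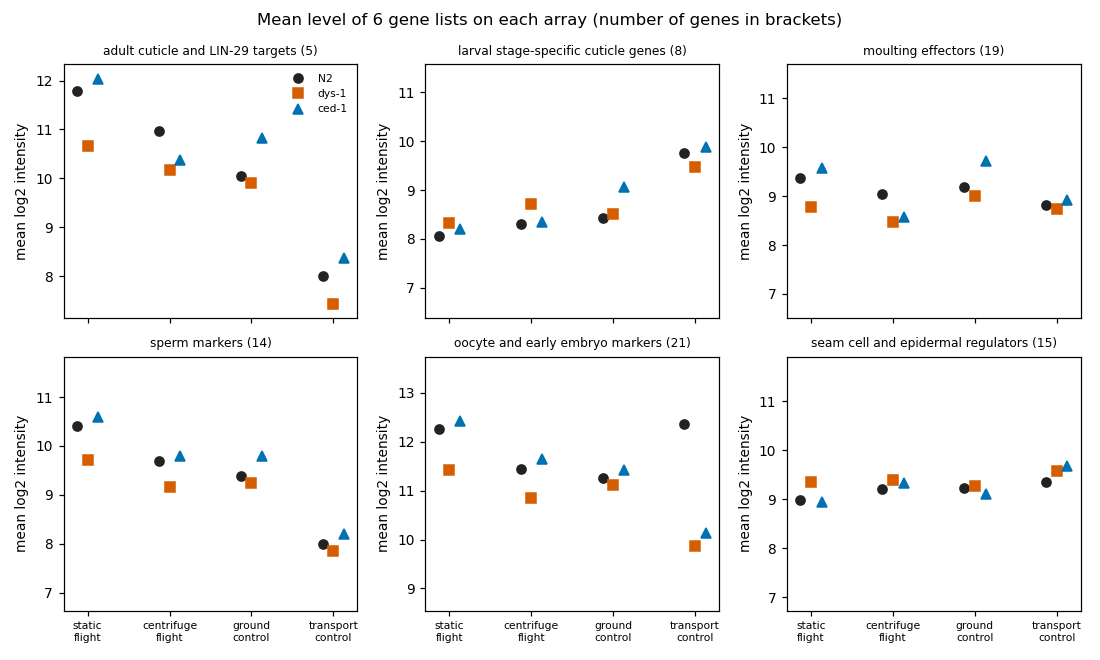
The mean log2 intensity over the genes of 6 lists on each of the 12 arrays, by condition on the horizontal axis, with circles for N2, squares for dys-1 and triangles for ced-1. Every panel spans the same number of log2 units. The adult cuticle list lies at 7.43 to 8.37 in the transport control and at 9.91 to 12.04 on the BIOBOX arrays, and the moulting effectors lie at 8.74 to 8.93 in the transport control and at 9.0 to 9.72 in the ground control.

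Germline markers moved along with these comparisons. Of 14 sperm markers 12 rose in static flight against the transport control, 11 in the ground control and 12 in centrifuged flight, and their mean per array was 7.86 to 8.20 in the transport control and 9.17 to 10.60 on the BIOBOX arrays. Without N2-TC the sperm counts were 12, 11 and 10. Of all genes 15.1%, 5.34% and 4.63% passed in either direction in these comparisons. The same shares stand beside the counts of every list set against the transport control with all arrays fitted. Of 21 oocyte and early embryo markers 12 rose in static flight and 0 passed in the other 2, with means of 9.87 to 12.37 in the transport control, 11.42 to 12.42 in static flight, 10.85 to 11.65 in centrifuged flight and 11.11 to 11.42 in the ground control. Without N2-TC, 20 of the 21 rose in static flight, 16 in the ground control and 15 in centrifuged flight. N2-TC was singled out for its high mean over these same 21 markers. The larger counts therefore follow from that choice and are not separate evidence of a rise. Yolk markers rose in 5 of 6 cases in static flight, 1 of 6 in the ground control and 4 of 6 in centrifuged flight, with means of 8.56 to 9.92 in the transport control and 9.82 to 11.43 elsewhere. Without N2-TC the yolk counts were 6, 5 and 5 of 6.

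Of 15 seam cell and epidermal regulators, 3 fell and 1 rose in static flight against the transport control, and their means were 9.36 to 9.69 in the transport control and 8.95 to 9.39 on the BIOBOX arrays. The fall of ceh-20, a homeobox gene, was 1.35 ± 0.28 (limma adjusted p = 0.00526). Of 12 dauer markers 2 fell in each of the 3 comparisons, cut-1 and col-2. Both are also on the larval cuticle list above, so these are the same falls. Without N2-TC 1 of the 12 dauer markers fell in the ground control, beside 2 in static flight and 2 in centrifuged flight. Levels of cut-1 were 13.44 to 13.81 in the transport control and 8.07 to 11.69 on the BIOBOX arrays. Those of col-2 were 13.08 to 13.22 and 8.55 to 11.79. None of 10 genes listed as embryonic markers passed in the ground control or centrifuged flight, and hlh-27 rose in static flight (1.17 ± 0.35, adjusted p = 0.0368). Its levels were uneven, at 6.09 to 8.52 in static flight and 5.91 to 6.18 in the transport control, so they overlapped. The part of these marker shifts in the values of the 9 genes was not tested.

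The gene blmp-1 encodes a BLIMP1-type zinc finger factor that prepares rhythmic epidermal genes for expression. In N2, dys-1 and ced-1 it stood at 6.81, 6.83 and 7.04 in static flight and 6.99, 6.04 and 6.54 in centrifuged flight. They were 6.84, 6.98 and 7.89 in the ground control and 7.74, 7.49 and 8.03 in the transport control. All 6 flown arrays lay below all 3 transport control arrays, whereas ced-1-GC fell inside the transport control range.

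Relative to the transport control, blmp-1 was lower by 0.86 ± 0.27 in static flight (1.81-fold, limma adjusted p = 0.0453) and by 1.23 ± 0.27 in centrifuged flight (2.34-fold, adjusted p = 0.0166). The ground control stood at −0.52 ± 0.27 without passing (adjusted p = 0.315). It was the single member that passed in the flown against the control pair, at −0.79 ± 0.19 (1.73-fold lower, adjusted p = 0.0249), where 1.66% of all genes were lower and 5.94% passed in either direction. It was also the single member to pass a test of any difference among the 4 conditions (limma F test, adjusted p = 0.0416, where 8.23% of genes passed). In that test lin-28 had an adjusted p of 0.0578 and nhr-25 of 0.0599.

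These calls sat close to the threshold. The static flight call was lost without any 1 of the 3 static arrays (−1.0 to −0.77), any 1 of the transport control arrays (−0.86), and also without dys-1-GC or dys-1-SC (−0.86), with adjusted p of 0.0526 to 0.187, and with no replicate block for strain (adjusted p = 0.0876). The centrifuged flight call was lost without dys-1-SC (−1.09, adjusted p = 0.101), ced-1-SC (−1.06, adjusted p = 0.0911), dys-1-TC or ced-1-TC (both −1.23, adjusted p = 0.067 and 0.0752). The flown call was lost without N2-SS, ced-1-SS, dys-1-SC, ced-1-SC, dys-1-TC, ced-1-GC or ced-1-TC (−0.79 to −0.66, adjusted p = 0.0606 to 0.0848) and with no replicate block (adjusted p = 0.056). Its single feature, F25D7.3, ran from 65.9 to 261.3 in linear intensity, a dim range in which the files carry no detection flag.

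The gene nhr-25 encodes a nuclear receptor of the Ftz-F1 family that is needed for moulting and for seam cell contacts. Its values in N2, dys-1 and ced-1 were 7.97, 8.04 and 7.18 in static flight and 7.92, 8.48 and 8.06 in centrifuged flight. They were 7.76, 8.43 and 7.64 in the ground control and 8.12, 9.62 and 8.97 in the transport control. The dys-1-TC and ced-1-TC arrays were above the other 10, and N2-TC lay among the BIOBOX arrays.

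Static flight was lower than the transport control by 1.17 ± 0.28 for nhr-25 (2.26-fold, limma adjusted p = 0.0127), with groups that did not overlap. The difference was −0.15 in N2, −1.58 in dys-1 and −1.79 in ced-1. The ground control stood at −0.96 ± 0.28 (adjusted p = 0.0675) and centrifuged flight at −0.75 ± 0.28 (adjusted p = 0.179), neither passing. Without N2-TC, the array with the high oocyte markers, the 3 values were −1.54, −1.32 and −1.11 and all passed (adjusted p = 0.00186, 0.0121 and 0.0298), and the flown against the control pair passed too (−0.66, adjusted p = 0.0365). N2-TC was the lowest transport control array of nhr-25, at 8.12, so leaving it out enlarges these differences. The transport control then rests on dys-1-TC and ced-1-TC, so the added calls are not separate evidence. The static flight call was lost without dys-1-SS (−1.07, adjusted p = 0.0527), ced-1-SS (−0.95, adjusted p = 0.0991), dys-1-TC (−1.0, adjusted p = 0.0777) or ced-1-TC (−0.98, adjusted p = 0.0912).

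Both features of nhr-25 passed on their own in static flight against the transport control. F11C1.6a had 262.1, 644.0 and 485.9 in N2-TC, dys-1-TC and ced-1-TC and 122.1 to 310.4 elsewhere (−1.11 ± 0.32, limma adjusted p = 0.0304). F11C1.6b had 293.6, 963.4 and 514.6 there and 171.3 to 411.0 elsewhere (−1.24 ± 0.32, adjusted p = 0.0188).

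**Figure D3:**
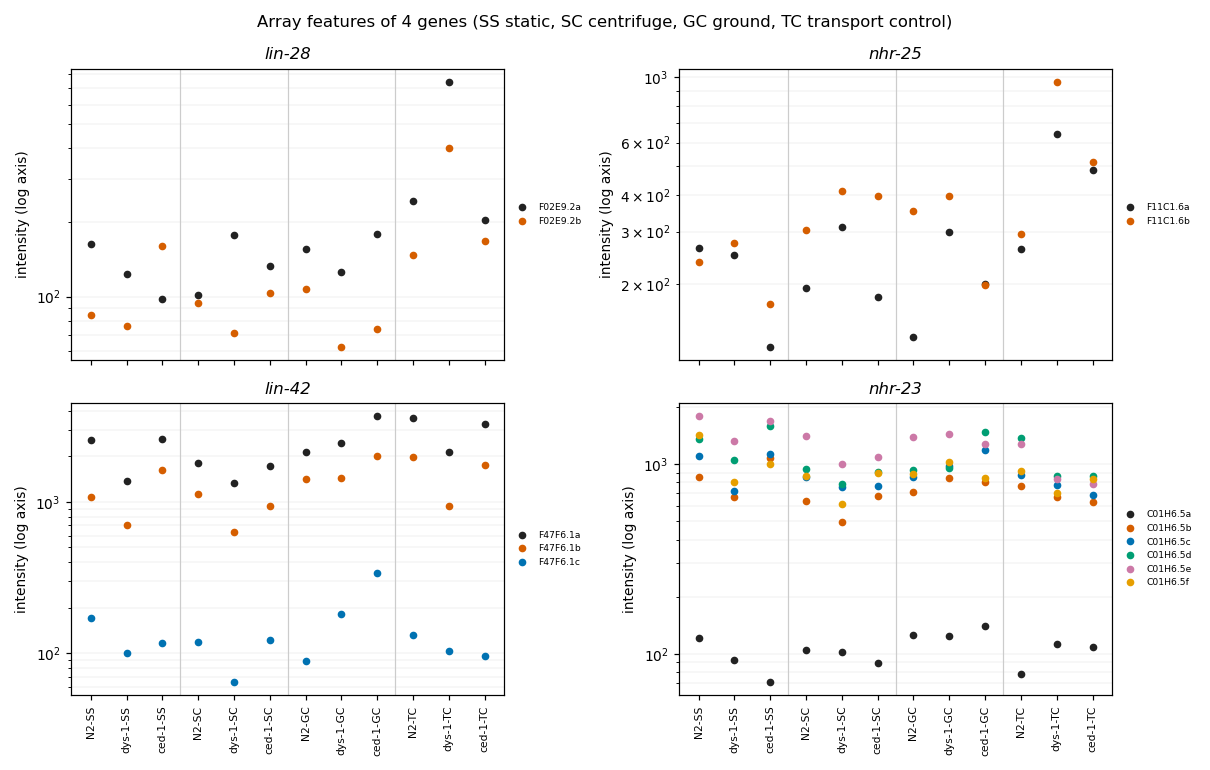
The linear intensity, on a log axis, of each array feature of lin-28, nhr-25, lin-42 and nhr-23 on the 12 arrays, grouped by condition with grey lines between conditions. The dys-1-TC array is the highest for both lin-28 features and both nhr-25 features, and C01H6.5a of nhr-23 stays between 71.4 and 140.5, below the other 5 features of that gene.

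The gene lin-42 encodes the worm relative of the circadian protein PERIOD, and its transcript is known to oscillate with the moults. In N2, dys-1 and ced-1 it stood at 9.60, 8.85 and 9.63 in static flight and 9.29, 8.57 and 9.18 in centrifuged flight. They were 9.34, 9.75 and 10.41 in the ground control and 9.93, 9.21 and 9.68 in the transport control. Every centrifuged array lay below every ground control array, with ced-1-GC the highest of the 12.

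Centrifuged flight minus ground control was −0.82 ± 0.27 for lin-42 without passing (limma unadjusted p = 0.00892, adjusted p = 0.711). In that comparison 0 of the 9 genes passed, where 0.035% of all genes did, and lin-42 and blmp-1 (−0.71 ± 0.27) were lower at an unadjusted p under 0.05, where 2.93% of all genes were. Groups did not overlap for lin-42 and nhr-23, both lower in the centrifuge, where 3.88% of all genes were lower without overlap. Without ced-1-GC, the array of low mean intensity, the values were −0.62 for lin-42 and −0.46 for blmp-1. All 3 features of lin-42 pointed the same way, at −0.74, −0.87 and −0.85, and their adjusted p ran from 0.577 to 0.823.

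Moulting effector genes lay the same way in that comparison, with 17 of 19 at a negative difference and a median of −0.61, beside 0.05 over all genes, though 0 of the 19 passed by limma. The mucin-like gene dpy-6 was at −1.41 ± 0.26 (limma adjusted p = 0.168) and the cuticlin gene cut-2 at −1.26 ± 0.25 (adjusted p = 0.185). Without ced-1-GC the median of the 19 was −0.43, with 17 still negative. Their mean per array was 8.48 to 9.05 in centrifuged flight and 9.0 to 9.72 in the ground control. Of 12 moulting regulators 0 passed there, with the angiotensin-converting enzyme relative acn-1 at −1.06 ± 0.34 (adjusted p = 0.701).

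The flown against the control pair gave −0.53 ± 0.19 for lin-42 (limma adjusted p = 0.132). Without N2-GC it passed (−0.73, adjusted p = 0.0183). At an unadjusted p under 0.05, 4 of the 9 genes were lower in that comparison, blmp-1, lin-42, lin-28 and nhr-25, where 7.67% of all genes were. The control pair includes the transport control. Against the ground control alone, lin-28 stood at 0.04 in static and 0.00 in centrifuged flight, and nhr-25 at −0.21 and 0.21. There blmp-1 stood at −0.34 and −0.71 and lin-42 at −0.47 and −0.82, and none of these passed. The flown minus control value of lin-28, −0.63, was −0.33 without dys-1-TC. In the flown comparison 1 feature of lin-42, F47F6.1b, passed on its own (−0.67 ± 0.18, limma adjusted p = 0.0464, where 5.2% of features passed). F47F6.1a at −0.61 ± 0.18 and F47F6.1c at −0.32 ± 0.28 did not (adjusted p = 0.0641 and 0.588). The intensities of F47F6.1b were 635.3 to 1627.1 on flown arrays and 945.8 to 1999.3 on control arrays, so they overlapped.

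The gene nhr-23 encodes a ROR-related nuclear receptor that drives moulting and has a further role in spermatogenesis. Its values in N2, dys-1 and ced-1 were 9.74, 9.24 and 9.62 in static flight and 9.31, 9.01 and 9.20 in centrifuged flight. They were 9.38, 9.5 and 9.60 in the ground control and 9.37, 9.12 and 9.09 in the transport control. With a span of 0.73 log2 units it was the least variable of the 9. The lowest ground control array, at 9.38, was about level with the highest transport control array, at 9.37, and just above the highest centrifuged array, at 9.31.

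No comparison passed for nhr-23 as a gene. Static minus centrifuged flight was 0.36 ± 0.21 and positive in all 3 strains (limma adjusted p = 0.543), and static flight minus the transport control was 0.34 ± 0.21 (adjusted p = 0.33). One of its 6 features, C01H6.5e, passed in static flight against the transport control (0.76 ± 0.23, adjusted p = 0.037), with intensities of 1323.2 to 1788.1 against 781.3 to 1270.2. The other 5 features did not pass there, with C01H6.5a at −0.08 and the rest at 0.31 to 0.38, and the difference between features was not tested. Over the 12 arrays C01H6.5a, the dimmest of the 6, followed the others weakly (Pearson r = −0.23 to 0.17, a description). Among the features other than C01H6.5a, r was 0.57 to 0.82. In centrifuged flight against the transport control 4.33% of all features passed, and of the 21 features F25D7.3 of blmp-1 did.

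Among the 12 moulting regulators, 3 fell in static flight against the transport control. The genes myrf-1 and myrf-2, which encode membrane-bound transcription factors that turn on lin-4, fell by 0.98 ± 0.22 (limma adjusted p = 0.00911) and 0.97 ± 0.24 (adjusted p = 0.0144), and pan-1, needed for moulting, fell by 0.78 ± 0.20 (adjusted p = 0.0182). In centrifuged flight pan-1 fell (−0.75 ± 0.20, adjusted p = 0.0476), and in the ground control 0 of the 12 passed. Without N2-TC the pan-1 call in centrifuged flight was lost. Among the 19 moulting effectors cut-2, nas-37, mlt-7 and mlt-10 rose in static flight and cut-2, nas-37 and mlt-10 in the ground control, and 0 fell in either. In centrifuged flight dpy-6 fell (−1.15 ± 0.26, adjusted p = 0.0192) and none rose.

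**Figure D4:**
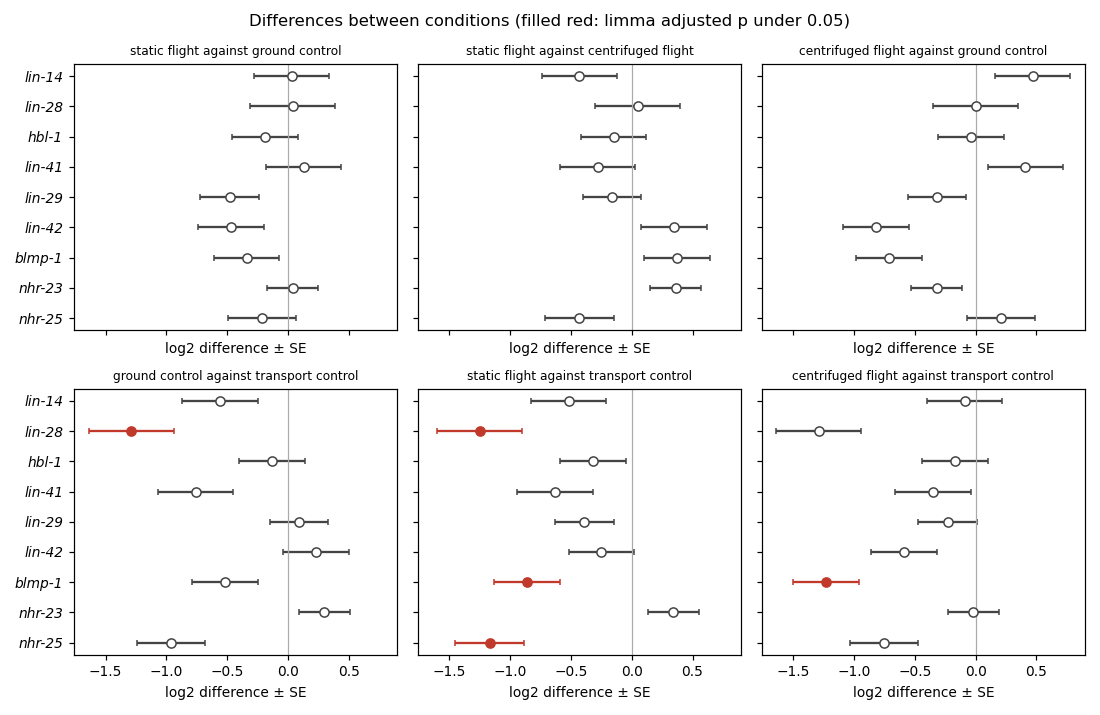
The log2 difference with its standard error for each of the 9 genes in 6 comparisons of conditions, with filled red points where limma's adjusted p was under 0.05. The upper panels, between BIOBOX conditions, hold no filled point, and the lower panels, against the transport control, hold 5, all at −0.86 or below.

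Static flight against the ground control and against the centrifuge showed no call among the 9 genes. Against the ground control 0 passed by limma, where 0.21% of all genes did, and 0 reached an unadjusted p under 0.05, where 11.7% did. The members' differences ran from −0.48 ± 0.24 for lin-29 and −0.47 ± 0.27 for lin-42 to 0.13 ± 0.31 for lin-41. Without ced-1-GC the lin-42 value was −0.27 and the lin-41 value was −0.10. Against the centrifuge 0 passed, where 0.005% of all genes did, and 0 reached an unadjusted p under 0.05, where 12% did. Those differences ran from −0.43 ± 0.31 for lin-14 and −0.43 ± 0.28 for nhr-25 to 0.37 ± 0.27 for blmp-1. Both comparisons share the static flight arrays, and none of the 18 values passed without the transport control arrays in the fit either, an alternative chosen after seeing the data.

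In static flight against the ground control, some genes of the accompanying lists passed although no member did. Of the 5 adult cuticle genes and LIN-29 targets, the collagen genes col-19 (2.21 ± 0.37) and col-7 (1.75 ± 0.31) rose, both with a limma adjusted p of 0.0406. Of 14 sperm markers, msd-1 (1.38 ± 0.24, adjusted p = 0.0433) and msd-2 (1.31 ± 0.23, adjusted p = 0.0406) rose, and all 14 had a positive difference. All 21 oocyte markers were positive as well, with a median of 0.70 and 0 passing. Without ced-1-GC 1 of the 5 cuticle genes and 0 of the 14 sperm markers passed. In static against centrifuged flight 0 genes of these lists passed, with medians of 0.93, 0.73 and 0.76. The part of these shifts in the values of the 9 genes was not tested.

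Against the transport control the counts of genes lower at an unadjusted p under 0.05 were 3 of 9 in the ground control (lin-28, nhr-25 and lin-41), where 11.1% of all genes were, and 4 of 9 in centrifuged flight (blmp-1, lin-28, nhr-25 and lin-42), where 8.41% were. In static flight 3 of the 9 lay wholly below the transport control, lin-28, blmp-1 and nhr-25, where 11.2% of all genes did. In the ground control 1 of 9 did, lin-28, where 10.6% of all genes did, and in centrifuged flight 2 of 9, lin-28 and blmp-1, where 9.08% did.

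Between strains, lin-41 showed the largest difference among the 9 genes. Over the 4 conditions the dys-1 arrays lay at 10.26 to 10.94 and the ced-1 arrays at 8.89 to 9.99, without overlap, a difference of 1.05 ± 0.27 (2.08-fold, 4 arrays per strain) that did not pass (limma adjusted p = 0.0869). Of all genes 3.31% were higher in dys-1 without overlap. Against the wild type, dys-1 was higher for lin-41 by 0.78 ± 0.27 (adjusted p = 0.226), by 1.10 in static flight, 1.64 in centrifuged flight, 0.40 in the ground control and −0.03 in the transport control. Without N2-SC that value was 0.47, and without N2-TC it was 0.98.

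Other genes differed by strain without passing. In dys-1 against ced-1, nhr-25 was at 0.68 ± 0.24, hbl-1 at 0.59 ± 0.23, lin-42 at −0.63 ± 0.23 and blmp-1 at −0.54 ± 0.23, each with the same sign in all 4 conditions (limma adjusted p = 0.162 to 0.234). In dys-1 against the wild type, nhr-25 was at 0.70 ± 0.24 and higher in 4 of 4 conditions, and hbl-1 was at 0.57 ± 0.23 and higher in 3 of 4 (adjusted p = 0.227 and 0.284). The nhr-25 differences by condition were 0.07, 0.56, 0.67 and 1.51 in SS, SC, GC and TC, and without N2-TC their mean was 0.43. Without ced-1-GC the blmp-1 value of dys-1 against ced-1 was −0.35. In ced-1 against the wild type no member exceeded 0.31 in either direction, though lin-14 was at 0.57 without ced-1-GC.

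In none of the 3 strain comparisons did any of the 9 genes pass by limma, and 0% of all genes did. At an unadjusted p under 0.05 there were 3 of the 9 in dys-1 against the wild type, 5 in dys-1 against ced-1 and 0 in ced-1 against the wild type, where 14.9%, 18.7% and 5.29% of all genes were. Germline and cuticle markers lay to one side as well in dys-1 against ced-1. The difference was negative for 14 of 14 sperm markers (median −0.61), 20 of 21 oocyte markers (median −0.61), 5 of 5 adult cuticle genes (median −0.80) and 18 of 19 moulting effectors (median −0.50), with 0 passing in each list. The part of these shifts in the strain values of the 9 genes was not tested.

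**Figure D5:**
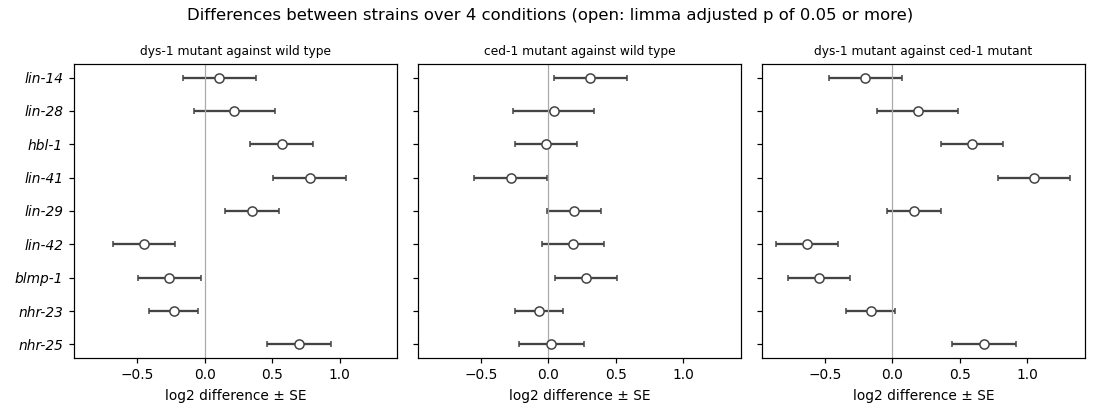
The log2 difference with its standard error for each of the 9 genes between strains, over 4 conditions, in 3 comparisons. All points are open, since none had a limma adjusted p under 0.05, and the largest is lin-41 in dys-1 against ced-1 at 1.05.

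A test of whether the flown minus control difference depended on strain gave no call, for 0 of the 9 genes and 0% of all genes by limma. For lin-41 the difference was 1.18 ± 0.43 higher in dys-1 than in the wild type (unadjusted p = 0.0181, adjusted p = 0.995), where 4.32% of all genes reached an unadjusted p under 0.05. It was 1.11 ± 0.43 higher in ced-1 than in the wild type (unadjusted p = 0.0244, adjusted p = 0.92), where 4.86% did. Both rest on the same wild type arrays, on which the flown values of 9.47 and 9.30 lay below the control values of 9.86 and 10.67. Without N2-TC the values were 1.14 ± 0.50 and 1.07 ± 0.50 (adjusted p = 0.639 and 0.707), and without ced-1-GC the ced-1 value was 0.87. With all arrays fitted, the other 8 genes had unadjusted p of 0.11 or more in both tests. Without N2-TC the lin-42 values were −1.19 in dys-1 and −1.06 in ced-1, beside −0.58 and −0.44 with all arrays. The hbl-1 values were 1.03 and 0.87 in that fit, beside 0.45 and 0.29. That fit leaves the wild type control on N2-GC alone, and its large values were not limited to lin-41.

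The members varied among arrays somewhat more than other genes, with a median SD over the 12 arrays of 0.49 beside 0.38 for all genes. The genes whose profile was most like each member's were found by Pearson r over the 12 arrays, as a description of the highest values among all genes. For lin-28 they were gap-2, a Ras GTPase-activating protein gene, at 0.941, nhr-61 at 0.931 and sulp-7 at 0.919. For nhr-25 they were the autophagy gene atg-13 at 0.955, with lev-10 and the dynamin gene dyn-1 both at 0.952. These genes share the arrays and their normalization with the members, and dys-1-TC is the highest array for both lin-28 and nhr-25.

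For blmp-1 the likest profiles were subs-4 at 0.956, srlf-29 at 0.944 and F57G8.7 at 0.916. For lin-42 they were the cuticle shape gene dpy-11 at 0.959, a gene known only by its sequence name at 0.94 and txdc-12.2 at 0.923, and for nhr-23 they were T27A10.6 at 0.921, the P granule gene pgl-3 at 0.92 and ferl-1 at 0.918. None of these is another of the 9 genes, which were left out of the search.

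Among the fate regulators, lin-41 was most like aco-2, the mitochondrial aconitase gene, at 0.954, M03C11.3 at 0.947 and the nuclease gene crn-3 at 0.945. The likest to lin-29 were nlr-1 at 0.925, flr-1 at 0.906 and the agrin gene agr-1 at 0.885. The likest to hbl-1 were M01G12.9 at 0.936, the calcium channel gene cca-1 at 0.917 and cebp-1, a bZIP factor gene, at 0.914. For lin-14 they were Y116F11B.11 at 0.928, tmem-120 at 0.901 and ZK669.5 at 0.893.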

How the data were processed

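Total RNA of 12 worm samples was labelled with Cy3 and hybridised to single-colour NimbleGen arrays. The authors deposited 1 linear intensity for each of 23187 features per array, normalized by RMA per the submitters' processing notes, whose version is not given in the sources used here. Since RMA makes array distributions alike, a shift of all transcripts together cannot be seen. A deposited value table held the intensity of 18185 of these features, all 21 of the members among them. From the deposited intensity, log2 values were taken without a pseudocount and averaged per gene (20018 genes). The reference gene table gave symbols for 19428 genes, the other 590 kept those of the array file, and no coordinates are given because the files name no build.

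Samples were grouped by the condition in their labels. The model, fitted to all genes on the 12 arrays, held terms for condition and for strain (limma 3.58.1, R 4.3.3, with 6 residual and 7.71 prior degrees of freedom). A gene passed at a Benjamini-Hochberg adjusted p under 0.05 over all genes, two-sided. Differences are log2, first group minus second, with SE. Strain is the replicate block: arrays of 1 strain are paired by the labels. Deviations from condition means of same-strain arrays correlated at −0.12 to 0.24 for N2, 0.09 to 0.47 for dys-1 and −0.02 to 0.39 for ced-1, over 6 pairs each.

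All 9 members were named, and from each of 13 gene lists up to 4 genes: those that passed with the largest change, otherwise those with the largest change. Members and lists were chosen with earlier results of these data known. Alternatives changed scaling, offset, block, variance model, weights, dim-gene filter, features per gene, feature set and the arrays fitted, and each array was left out in turn. Lists and interactions were also refitted without N2-TC and without ced-1-GC, chosen after seeing the data.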

Additional observations from a re-analysis of the deposited data

Results flagged for a closer look

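In each strain a gene has 4 arrays, and the highest or lowest was compared with the gap to its neighbour. Of 27 such groups of 4 arrays, 3 had 1 array far from the others. Chance flags about 1 in 20 groups of like arrays. These 4 arrays differ in condition, so a condition difference can be flagged too and that rate does not apply. For lin-28 in the dys-1 strain, dys-1-TC was at 9.09 while the other arrays lay between 6.47 and 6.82, a gap of 0.87 of the whole range. For hbl-1 in the wild type, N2-GC was at 7.75 while the others lay between 6.98 and 7.10, a gap of 0.84 of the range. For nhr-23 in the wild type, N2-SS was at 9.74 while the others lay between 9.31 and 9.38, also a gap of 0.84 of the range. The lin-28 array is the one without which its differences from the transport control came to −0.70 to −0.65.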

How the results depend on the processing

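Member differences with an unadjusted p under 0.05 kept their sign under the 21 to 26 settings run for each, and the other differences were not followed. Counts of passing members are given per comparison, and 0 members passed under every setting that could be run for the 3 comparisons among the BIOBOX conditions, dys-1 against wild type and ced-1 against wild type. For the ground against the transport control (1, lin-28) the count was 0 with an offset of 50, with no replicate block, with the brightest feature, with only the compared groups, and without all dys-1 or all ced-1 arrays, and 2 without all N2 arrays. For static flight against the transport control (3) it was 0 without all dys-1 or all ced-1 arrays, 2 with no replicate block, with trended and robust variance, with dim genes left out or without all N2 arrays, and 4 with the brightest feature. For centrifuged flight against the transport control (1) it was 2 with quantile normalization, trended and robust variance, array weights or only the features of the value table, and 0 without all dys-1 or all ced-1 arrays. For the flown against the control pair (1) it was 0 with no replicate block, with dim genes left out, and without all dys-1 or all ced-1 arrays. For any difference among conditions (1) it was 2 with quantile normalization or without all N2 arrays, 3 with array weights, and 0 with an offset of 50, with dim genes left out, with no replicate block, and without all dys-1 or all ced-1 arrays. For dys-1 against ced-1 (0) it was 1 with trended and robust variance, lin-41 at an adjusted p of 0.0475. With single arrays left out the counts ran from 0 to 2 for ground against transport, 0 to 3 for static flight against transport, 0 to 3 for centrifuged flight against transport, 0 to 2 for flown against control and 0 to 3 for any difference. The filter on dim genes kept 10009 genes and left hbl-1 and blmp-1 untested, and leaving out a strain leaves fewer arrays; the other causes were not tested. Median centring changed no call named above, and scalings moved the median of all genes by at most 0.05. The low intensities of lin-28, hbl-1 and blmp-1, in files with no detection flag, limit how far their values can be read.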
